A study of Mus musculus with 6 samples.

Results

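The Polycomb regulators of the Cdkn2a locus examined here are 10 genes chosen by name: the histone methyltransferases Ezh1 and Ezh2, their partners Suz12 and Eed, the Polycomb repressive complex 1 (PRC1) genes Bmi1, Ring1, Rnf2 and Cbx7, and the demethylases Kdm6a and Kdm6b. All 10 were among the 27179 genes with an identifier in the count table, and all 10 were among the 14855 genes tested after a filter on low counts. They were measured by bulk RNA sequencing in cancer-associated fibroblasts (CAFs) of 3 mammary tumors from raGFP-Wnt1 mice. These mice carry a green fluorescent protein (GFP) reporter of the fibroblast gene Pdgfra and a Wnt1 transgene driven by the MMTV promoter, which is active in the mammary epithelium. GFP-positive cells of each tumor were sorted for the surface protein CD34, which gave 3 libraries of CD34- CAFs and 3 of CD34+ CAFs, all of the same genotype and with no further treatment named. The age of the mice is not given in the sources used here. Each library is named by its CD34 status and its tumor, as negative library 1 or positive library 1.

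Polycomb proteins keep genes silent by marking histones. Polycomb repressive complex 2 (PRC2), built on EZH1 or EZH2 with SUZ12 and EED, methylates lysine 27 of histone H3, and PRC1 contains a CBX protein that binds this mark and a RING1 or RNF2 ubiquitin ligase paired with a PCGF protein such as BMI1. The Cdkn2a locus, which encodes the cell cycle inhibitors p16 (Ink4a) and p19 (Arf) beside p15 from Cdkn2b, is a classical target of both complexes in fibroblasts, in which loss of the mark accompanies senescence. KDM6A and KDM6B remove the methyl groups, and KDM6B is known to be induced by stress signals. The comparison asked whether the RNA of these regulators differed between the fractions, next to the RNA of the locus itself.

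The 3 start sites of Cdkn2a and Cdkn2b are shown first, since the locus is the target that the regulators share. The stretches are the 250 bases before each start in RefSeq, build GRCm38.p6, minus strand, written 5′ to 3′, and capitals mark a match to an E2F motif. The first is the outer Cdkn2a start (chr4:89294620-89294869), from which the Arf transcript begins, the second the inner one (chr4:89282193-89282442) of the Ink4a transcript, and the third the Cdkn2b start (chr4:89311033-89311282).
Cdkn2a outer start: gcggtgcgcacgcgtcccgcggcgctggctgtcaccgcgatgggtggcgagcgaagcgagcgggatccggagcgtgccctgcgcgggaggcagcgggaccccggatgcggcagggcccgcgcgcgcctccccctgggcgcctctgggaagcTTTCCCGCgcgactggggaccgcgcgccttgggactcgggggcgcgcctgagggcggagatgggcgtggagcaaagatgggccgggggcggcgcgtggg
Cdkn2a inner start: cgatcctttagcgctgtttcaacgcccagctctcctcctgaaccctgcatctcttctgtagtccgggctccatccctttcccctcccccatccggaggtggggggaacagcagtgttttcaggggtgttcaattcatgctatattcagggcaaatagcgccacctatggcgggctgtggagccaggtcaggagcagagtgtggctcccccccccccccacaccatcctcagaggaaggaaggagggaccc
Cdkn2b start: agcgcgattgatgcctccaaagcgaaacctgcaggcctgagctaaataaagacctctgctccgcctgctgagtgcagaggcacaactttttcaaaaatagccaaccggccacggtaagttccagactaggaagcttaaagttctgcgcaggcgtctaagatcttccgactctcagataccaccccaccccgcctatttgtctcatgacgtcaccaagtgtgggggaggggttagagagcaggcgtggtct

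The E2F motif was searched in 4 spellings of 8 letters (TTTCCCGC, TTTCGCGC, TTTGCCGC and TTTGGCGC) on both strands, where matches on opposite strands may share bases, in windows of 250 bases before and 50 after each start. A match was present in 2.26% of all 32851 RefSeq windows. All 4 spellings contain the dinucleotide CpG, and this share was not matched for the CpG content of the windows. Of the 9 regulators with a window, Ezh2 and Suz12 had 1 match each, and the remaining 7 had none. E2F factors drive S phase genes, and the 2 matches are shown in 30 bases of context, in capitals, because Ezh2 is known to be expressed with the cell cycle. The match began 4 bases after the Ezh2 start and 219 bases before the Suz12 start. A match describes letters, and binding was not measured.
Ezh2: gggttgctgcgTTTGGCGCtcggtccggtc
Suz12: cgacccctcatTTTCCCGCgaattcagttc

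The 9 windows of the regulators held between 17 and 41 CpG dinucleotides, against a median of 7 and an upper quartile of 20 over all windows. All of them but that of Eed, at 17, were above this quartile. The regulators lie on 8 different chromosomes. The outer Cdkn2a start held 45 CpG, the Cdkn2b start 18 and the inner Cdkn2a start 12. The fewest CpG among the regulators were at Eed and the most at Suz12.

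The libraries held between 16238059 and 86609267 counts. Negative library 3 had counts for the fewest genes, 14314, against 16253 to 19220 in the others, and stood apart from them, so fold changes of the regulators that moved by over 1.5 times without it are given both ways. Cd34, the sorted marker, was at 42.0 to 102 CPM (counts scaled to a common library size) in CD34- and 563 to 1605 CPM in CD34+ CAFs, a log2 fold change of -3.63 (limma-voom, adjusted p 0.0414). The labelled cell type was checked on fibroblast markers, and Pdgfra was at 302 to 506 CPM in all libraries. Of the 7 fibroblast markers, Pdgfrb rose by 0.94 and Dcn and Lum fell by 1.12 and 0.73 on the log2 scale with the tumor block described below. Immune markers summed to 11.7 to 15.6 CPM in CD34- and 6.19 to 19.7 CPM in CD34+ CAFs, with Ptprc and Cd68 at 0 in negative library 3. Epithelial markers summed to 149, 125 and 48.3 CPM in negative libraries 1, 2 and 3. In positive libraries 1, 2 and 3 they summed to 130, 82.4 and 12.8 CPM, so the CD34- sum was higher in each tumor. None of the 6 passed the test without or with the block, but 5 were higher in 3 of 3 tumors, against 22.8% of all genes. Of 6 pericyte markers, Cspg4, Mcam and Notch3 were higher and Kcnj8 and Abcc9 lower in CD34- CAFs with the tumor block, and the 6 summed to 211 to 236 against 86.8 to 188 CPM. Rgs5, the remaining marker, was at 3.72 to 10.7 CPM in CD34- and 0.247 to 1.18 CPM in CD34+ CAFs. Its log2 fold change with the block was 2.60 (limma-voom, adjusted p 0.0803), which did not pass. Of 5 endothelial markers, Tek was lower with the block and the 5 summed to 10.4 to 29.6 against 55.2 to 122 CPM, of which Tek alone made up 5.45 to 13.4 and 48.8 to 116 CPM. Cdh5 and Emcn had log2 fold changes of 2.19 and 3.09 in the other direction and did not pass, and Emcn was at 0 in 3 libraries.

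The RNA of the locus differed between the fractions. Cdkn2a (gene 12578, chr4:89274473-89294619) was at 58.6, 69.2 and 61.0 CPM in negative libraries 1, 2 and 3 and at 13.6, 18.3 and 4.80 CPM in positive libraries 1, 2 and 3. Every negative library was above every positive library. In limma-voom the log2 fold change of CD34- minus CD34+ CAFs was 2.34 ± 0.39 (SE, adjusted p 0.0735 over all genes), which missed the threshold of 0.05. With the tumor of origin as a block, which compares the 2 fractions within each tumor, Cdkn2a rose by 2.28 ± 0.29 with an adjusted p of 0.00233. The counts are per gene and cannot separate the Ink4a and Arf transcripts.

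Cdkn2b (gene 12579, chr4:89306289-89311032) stood at 58.6, 84.5 and 72.3 CPM in CD34- CAFs and at 23.9, 34.3 and 8.47 CPM in CD34+ CAFs. The groups did not overlap, and positive library 3 was the lowest for both genes. Its log2 fold change was 1.73 ± 0.43 without the block (limma-voom, adjusted p 0.142), and with the block it rose by 1.69 ± 0.29 (adjusted p 0.00883). The neighbor Mtap, an enzyme of methionine salvage, had a log2 fold change of 0.14 ± 0.28 (limma-voom, adjusted p 0.850), and Dmrta1 stayed at or below 0.221 CPM and was not tested. The pericyte markers Rgs5, Cspg4, Mcam and Notch3 moved in the direction of the locus, and Kcnj8 and Abcc9 in the opposite one. The summed epithelial markers were also higher in the CD34- CAFs of each tumor. The part of these markers in the difference of the locus was not tested. In bulk samples, fewer cells that express a gene and less RNA per cell cannot be told apart.

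None of the 10 regulators passed the test between the fractions, without or with the tumor block. The background was 0.121% of all genes called without and 8.57% with the block, or 4.32% higher and 4.25% lower. At an unadjusted p under 0.05, 1 regulator of 10, Cbx7, was reached by limma-voom in either fit, against 14.3% of all genes without and 23.3% with the block. edgeR called 0 regulators without and 0 with the block, and DESeq2 0 without and 1, Cbx7, with it. The median log2 fold change of the 10 was 0.03, against -0.03 over all genes tested. The median size of the change, whatever its direction, was 0.26 for the regulators and 0.37 for all genes. In 7 of 10 the 95% confidence interval lay inside a change of 1 on the log2 scale in either direction, without and with the block. Without the block this held for 6222 of all 14855 genes tested. The wider intervals belonged to Eed, Ring1 and Cbx7.

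**Figure D1:**
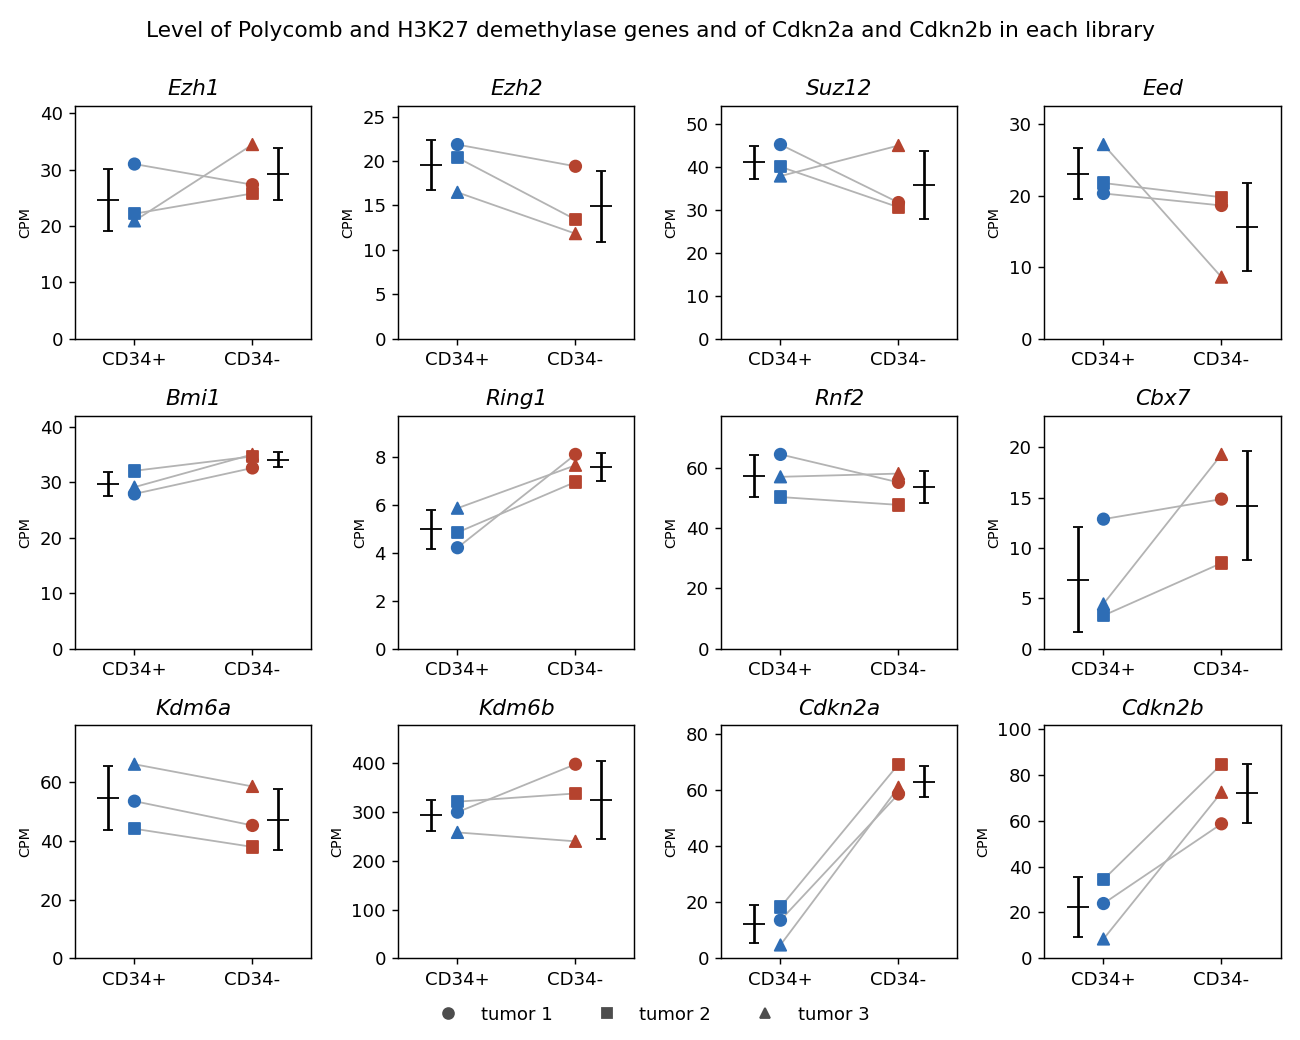
Level in CPM (y axes, linear, from 0) of the 10 regulators and of Cdkn2a and Cdkn2b in each library, with CD34+ CAFs left and CD34- CAFs right. Symbols give the tumor, grey lines join the 2 libraries of a tumor, and black bars are the mean ± SD of 3 libraries. Cdkn2a and Cdkn2b separate in every tumor, while the fractions overlap for all regulators but Eed, Bmi1 and Ring1.

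Among the methyltransferases, Ezh1 is the form kept in resting cells. It stood at 27.3, 25.8 and 34.5 CPM in negative libraries 1, 2 and 3 and at 31.0, 22.2 and 20.9 CPM in positive libraries 1, 2 and 3. The groups overlapped, with the highest value in negative library 3 and a higher negative library in 2 of 3 tumors. The log2 fold change was 0.30 ± 0.22 (95% interval -0.19 to 0.80, limma-voom, adjusted p 0.560). Without negative library 3 it was 0.18, and with the block and without tumor 3 it was 0.04.

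Ezh2, the more active methyltransferase of dividing cells, was at 19.4, 13.4 and 11.8 CPM in CD34- CAFs and at 21.8, 20.4 and 16.5 CPM in CD34+ CAFs. The groups overlapped through negative library 1, and the negative library was lower in 3 of 3 tumors. The log2 fold change was -0.38 ± 0.25 (interval -0.96 to 0.20, limma-voom, adjusted p 0.534), and with the block -0.44 ± 0.20 (adjusted p 0.237). Without negative library 3 it was -0.25.

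Per gene length, in CPM per kilobase (RPKM), the Ezh2 to Ezh1 ratio was 1.12, 0.818 and 0.540 in negative libraries 1, 2 and 3. In positive libraries 1, 2 and 3 it was 1.11, 1.44 and 1.24. In tumor 1 the ratios of both fractions were alike. In tumors 2 and 3 the CD34- CAFs had more Ezh1 than Ezh2 per length and the CD34+ CAFs the reverse. This order rests on the deposited lengths. In counts the ratio was 0.343 to 0.710 in CD34- and 0.705 to 0.918 in CD34+ CAFs, below 1 in every library. The mean log2 ratio was lower by 0.67 in CD34- CAFs, a description with no test. Without negative library 3 the log2 difference was -0.39.

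Most of the listed cell cycle genes moved in the direction of Ezh2. Of 12 proliferation genes, 6 fell in CD34- CAFs with the block (limma-voom, against 4.25% of all genes) and 0 without it: Mki67, Top2a, Ccna2, Mcm2, Mcm5 and Cdk1. With the tumor as a random effect none of these 6 passed, at adjusted p from 0.0642 to 0.251. Mki67, the common marker of cycling cells, was at 4.72, 21.9 and 20.2 CPM in negative libraries 1, 2 and 3 and at 16.6, 106 and 47.3 CPM in positive libraries 1, 2 and 3, a fall of 1.86 on the log2 scale with the block (adjusted p 0.00233). The 12 genes summed to 88.9 to 149 CPM in CD34- and 144 to 505 CPM in CD34+ CAFs, the highest being positive library 2. In tumor 3 the sums were close, at 143 and 149 CPM. Pcna made up 53.1 to 105 CPM of the CD34- and 57.0 to 103 CPM of the CD34+ sums. It did not pass (-0.13 with the block, limma-voom, adjusted p 0.843). Within tumor 3, Pcna and Rrm2 were higher in CD34- CAFs, at log2 ratios of 0.88 and 0.47. Of the 12 genes, 10 were lower in 3 of 3 tumors, against 23.4% of all genes. The part of proliferation in the level of Ezh2 was not tested.

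The 2 partners that PRC2 needs for activity did not pass either. Suz12, which anchors the complex on chromatin, was at 31.8, 30.7 and 45.1 CPM in CD34- CAFs and at 45.3, 40.1 and 38.0 CPM in CD34+ CAFs. Negative libraries 1 and 2 were below all positive libraries, while negative library 3 was within their range. Its log2 fold change was -0.21 ± 0.21 (interval -0.68 to 0.26, limma-voom, adjusted p 0.675), and -0.38 without negative library 3 (adjusted p 0.378).

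Eed, the subunit that reads the methyl mark and stimulates the enzyme, was at 18.6, 19.8 and 8.61 CPM in negative libraries 1, 2 and 3 and at 20.3, 21.8 and 27.1 CPM in positive libraries 1, 2 and 3. It was the 1 regulator whose negative libraries all lay below its positive libraries, against 10% of all genes tested. Most of the gap came from tumor 3: the log2 ratios within tumors 1, 2 and 3 were -0.13, -0.14 and -1.65. The log2 fold change was -0.59 ± 0.32 (interval -1.33 to 0.15, limma-voom, adjusted p 0.447), and without negative library 3 it was -0.26 (adjusted p 0.582).

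**Figure D2:**
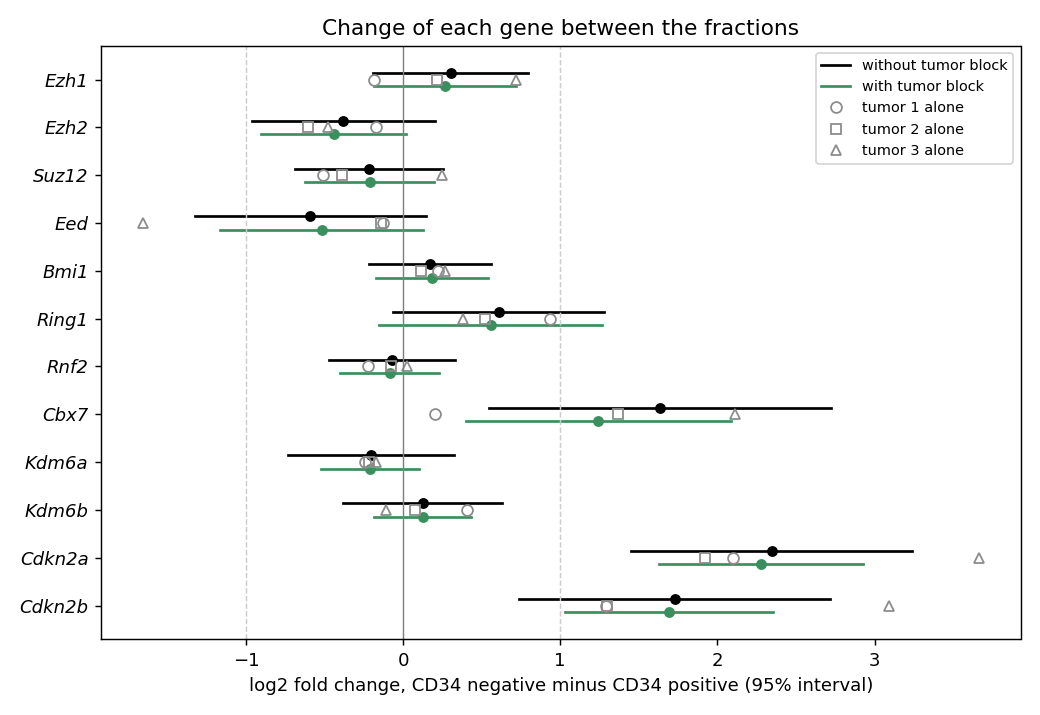
Log2 fold change of each gene, CD34- minus CD34+ CAFs (x axis), with points for the estimate and lines for the 95% interval without (black) and with (green) the tumor block, and open grey symbols for the log2 ratio within each tumor. Dashed lines mark a change of 1 on the log2 scale. The intervals of 9 regulators include 0 in both fits, that of Cbx7 does not, and neither do those of Cdkn2a and Cdkn2b.

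The largest positive log2 fold changes among the regulators, those of Cbx7 and Ring1, were in PRC1 genes, but neither passed. Cbx7, the chromobox subunit that binds methylated lysine 27 and a known repressor of Cdkn2a, was at 14.9, 8.50 and 19.3 CPM in negative libraries 1, 2 and 3 and at 12.9, 3.29 and 4.45 CPM in positive libraries 1, 2 and 3. The groups overlapped, because positive library 1 was above negative library 2, yet the negative library was higher in 3 of 3 tumors. The log2 ratio within tumors 1, 2 and 3 was 0.20, 1.37 and 2.11.

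Cbx7 thus had a log2 fold change of 1.63 ± 0.48 (interval 0.55 to 2.72, limma-voom, p 0.00830, adjusted p 0.182). The estimate depended on the fit. It was 1.24 ± 0.37 with the tumor block (interval 0.40 to 2.08, adjusted p 0.0765), 1.55 with the tumor as a random effect (adjusted p 0.0503), 1.07 in edgeR, 1.05 in DESeq2 and 1.00 without positive library 2. It passed in 2 of 26 alternatives, which were DESeq2 with the block (1.22, adjusted p 0.0420) and limma-voom with the block without tumor 1 (1.69, adjusted p 0.0409). With the block and without tumor 3 it was 0.79 (adjusted p 0.121). Apobec3, a neighbor on chromosome 15, shares 100 exon bases with Cbx7, and had 2569 counts in all against 2536 for Cbx7. Apobec3 had a log2 fold change of 0.09 ± 0.27 (adjusted p 0.903).

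Ring1, a ubiquitin ligase subunit, was at 8.10, 6.95 and 7.65 CPM in CD34- CAFs and at 4.21, 4.85 and 5.86 CPM in CD34+ CAFs. Every negative library was above every positive library, and the gap was seen in 3 of 3 tumors. The log2 fold change was 0.61 ± 0.29 (interval -0.06 to 1.28, limma-voom, adjusted p 0.393). Ring1 had the fewest counts of the regulators, with 68 in positive library 1, which limits its precision.

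Bmi1, the PCGF subunit best known for holding Cdkn2a silent, was at 32.6, 34.7 and 35.0 CPM in CD34- CAFs and at 27.9, 32.1 and 29.1 CPM in CD34+ CAFs. The groups did not overlap, but the gap was small, with a log2 fold change of 0.17 ± 0.17 (interval -0.22 to 0.56, limma-voom, adjusted p 0.687). Ring1 and Bmi1 were the 2 of 10 regulators with all negative libraries above all positive ones, against 10.4% of all genes.

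Rnf2, the main ubiquitin ligase of PRC1, was at 55.1, 47.6 and 58.0 CPM in CD34- CAFs and at 64.4, 50.2 and 56.9 CPM in CD34+ CAFs. Both groups covered nearly the same range, and the log2 fold change was -0.07 ± 0.18 (interval -0.47 to 0.33, limma-voom, adjusted p 0.889), or -0.14 without negative library 3. Per length, the Rnf2 to Ring1 ratio was between 4.57 and 5.10 in CD34- and between 6.53 and 10.3 in CD34+ CAFs, so Rnf2 was the more abundant in all 6 libraries.

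Neither demethylase passed the test, and both overlapped between the fractions. Kdm6a, encoded on the X chromosome, was at 45.3, 38.0 and 58.6 CPM in CD34- CAFs and at 53.6, 44.2 and 66.2 CPM in CD34+ CAFs. It differed more between tumors than between fractions, being lowest in tumor 2 and highest in tumor 3 in both. The log2 ratios within tumors 1, 2 and 3 were -0.24, -0.22 and -0.18. Without the block, the log2 fold change was -0.20 ± 0.23 (interval -0.73 to 0.33, limma-voom, adjusted p 0.728), or -0.37 without negative library 3. With the block it was -0.21 ± 0.14 (interval -0.52 to 0.10, limma-voom, adjusted p 0.425).

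Kdm6b, the inducible demethylase, was at 397, 337 and 239 CPM in CD34- CAFs and at 299, 320 and 258 CPM in CD34+ CAFs. The negative group spanned the positive one, and the negative library was higher in tumors 1 and 2 and lower in tumor 3. The log2 fold change was 0.12 ± 0.22 (interval -0.38 to 0.63, limma-voom, adjusted p 0.835). It turned to -0.04 without negative library 1 and was 0.34 without negative library 3. Uty, the Y-linked relative of Kdm6a, had 0 counts in all libraries.

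Levels of different genes were compared per length. Kdm6b had the highest mean over the 6 libraries, 46.3 RPKM with a range of 36.0 to 59.6, followed by Rnf2 at 18.3 RPKM with a range of 15.7 to 21.3. Neither range overlapped with that of any other regulator. A middle tier was formed by Kdm6a, Eed, Bmi1 and Suz12, at means of 9.69, 9.40, 8.88 and 8.80 RPKM, and was followed by Ezh2 and Ezh1 at 6.46 and 6.43. Within this tier and between its neighbors the ranges overlapped, so their order is within the spread. Cbx7 and Ring1 were lowest, at 3.65 and 3.08 RPKM, and also overlapped. Cdkn2a, at 4.22 to 60.9 RPKM, covered a wider range than any regulator on the same scale.

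The regulators belong to families of related genes, which are compared here per length. Among the PRC1 genes Cbx2, Cbx6, Cbx7 and Cbx8, Cbx6 held between 65.5% and 85.4% of the summed RPKM of these genes in every library. Cbx7 held 15.96%, 15.1% and 32.0% in negative libraries 1, 2 and 3 and 16.2%, 6.39% and 8.78% in positive libraries 1, 2 and 3, so its share was alike in tumor 1 and differed in tumors 2 and 3. Bmi1 held between 20.7% and 27.9% of the PCGF genes, beside Pcgf2 and Pcgf3, and these shares overlapped between the fractions.

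**Figure D3:**
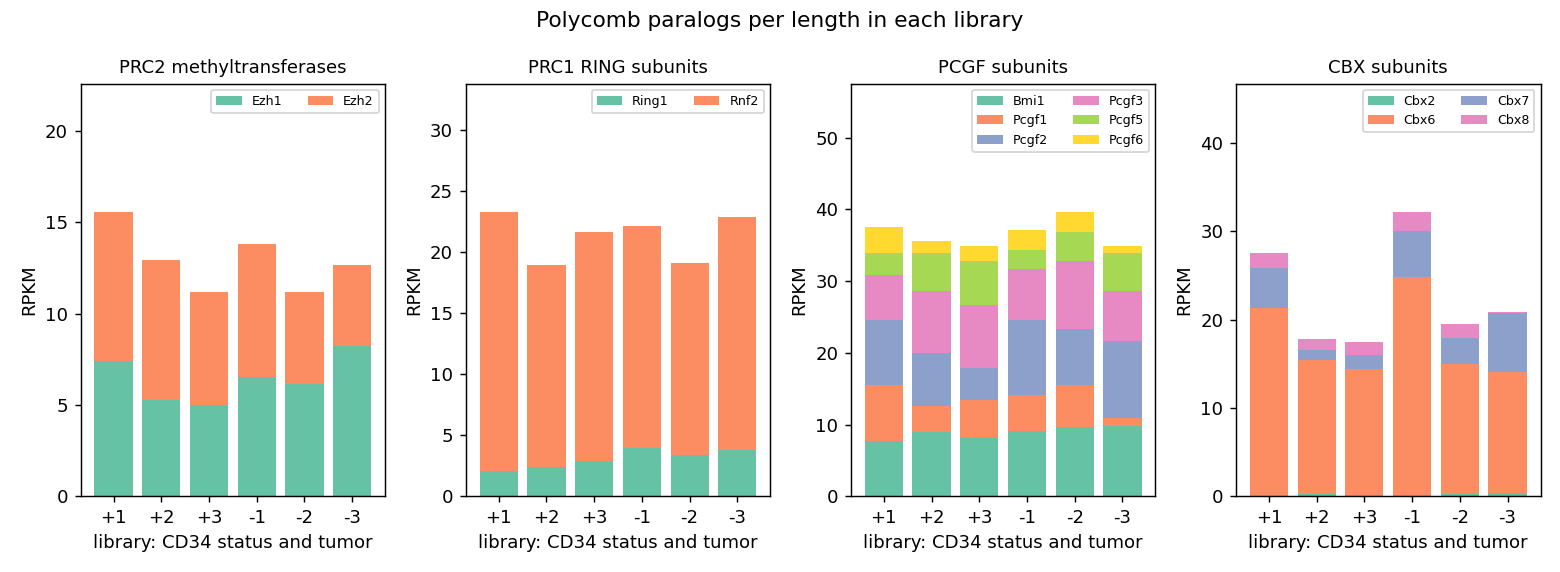
Stacked bars of the level per length (RPKM, linear y axes from 0) of Ezh1 and Ezh2, Ring1 and Rnf2, the PCGF genes and the CBX genes compared in each library, with + and - for CD34 status and the number for the tumor. Ezh1 exceeds Ezh2 in negative libraries 2 and 3, Rnf2 exceeds Ring1 and Cbx6 exceeds the other CBX genes drawn in all 6 libraries.

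The other genes of the Polycomb system were taken from lists of PRC2 accessory subunits, further PRC1 subunits and the PR-DUB complex, which removes the ubiquitin that PRC1 adds. Of 41 such genes, 40 were tested, and Ezhip had 0 counts in all libraries. Without the block 0 of 40 passed in limma-voom, with 3 higher and 2 lower at an unadjusted p under 0.05, 0 in edgeR and 2 in DESeq2. With the block 2 of 40 rose, against 4.32% of all genes, and 0 fell, while the tumor as a random effect gave 1 higher and 1 lower. The median log2 fold change of the 40 without the block was 0.09. The 8 tested genes of the PRC2 list had a median of -0.17, or -0.24 with the block. In this list 4 genes had all negative libraries below all positive ones and 1 had all above, against 10% and 10.4% of all genes.

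Phf1, a PRC2 accessory subunit that reads a mark of active genes, was at 31.7, 29.7 and 38.3 CPM in CD34- CAFs and at 18.7, 14.4 and 18.9 CPM in CD34+ CAFs. The groups did not overlap, and the log2 fold change was 1.01 ± 0.22 (limma-voom, adjusted p 0.0967), or 0.97 ± 0.18 with the block (adjusted p 0.0119). Phc2, a polyhomeotic subunit of PRC1, was at 32.9, 41.6 and 53.6 CPM in CD34- and at 21.8, 29.3 and 29.4 CPM in CD34+ CAFs. It had a log2 fold change of 0.59 (limma-voom, adjusted p 0.321) and rose by 0.64 ± 0.17 with the block (adjusted p 0.0430), a call lost with the tumor as a random effect (adjusted p 0.0998).

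Other genes with large fold changes did not pass without or with the block. Mtf2, a relative of Phf1, had a log2 fold change of -0.37, and the PR-DUB genes Asxl3 and Mbd6 of 1.38 and 0.77, all with a limma-voom adjusted p from 0.332 to 0.565. Without negative library 3, Asxl3 was at 0.76 and Mbd6 at 0.50. Scml2, an X-linked PRC1 partner, was chosen after its values were seen. It was at 1.39, 0.775 and 0.220 CPM in negative libraries 1, 2 and 3 and at 4.77, 4.80 and 5.61 CPM in positive libraries 1, 2 and 3. The groups were far apart at a low level, with a log2 fold change of -2.83 ± 0.71 (limma-voom, adjusted p 0.142) and -2.62 with the block (adjusted p 0.0556), and it passed with the tumor as a random effect (adjusted p 0.0472).

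Antagonists of Polycomb, such as the Trithorax methyltransferases and the SWI/SNF remodeler, were listed as 10 genes. Of these, 9 were tested and 0 passed without or with the block in limma-voom. Without the block 0 had an unadjusted p under 0.05, against 14.3% of all genes. With it, Kmt2b (limma-voom, p 0.0384, adjusted p 0.185) and Kmt2d (p 0.0353, adjusted p 0.177) did, against 23.3% of all genes. The largest changes were 0.40 for Kmt2b and 0.36 for Kmt2d on the log2 scale, or 0.20 for each without negative library 3. Of 6 other known repressors of the locus, 4 rose with the block, against 4.32% of all genes, and 0 passed without it. These were Id1, which blocks ETS and bHLH factors, at a log2 fold change of 1.09 with the block (adjusted p 0.0131), the T-box repressors Tbx2 at 1.02 (adjusted p 0.0366) and Tbx3 at 0.81 (adjusted p 0.0388), and Zbtb7a, a repressor of Arf, at 0.73 (adjusted p 0.0182). With the tumor as a random effect Tbx2 alone of the 4 passed (adjusted p 0.0362), and Zbtb7a, Id1 and Tbx3 had adjusted p of 0.0599, 0.0624 and 0.166. Of 5 listed activators, Foxo3 rose by 1.00 with the block (adjusted p 0.00793), and Junb had a log2 fold change of 0.49 with the block (adjusted p 0.100).

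**Figure D4:**
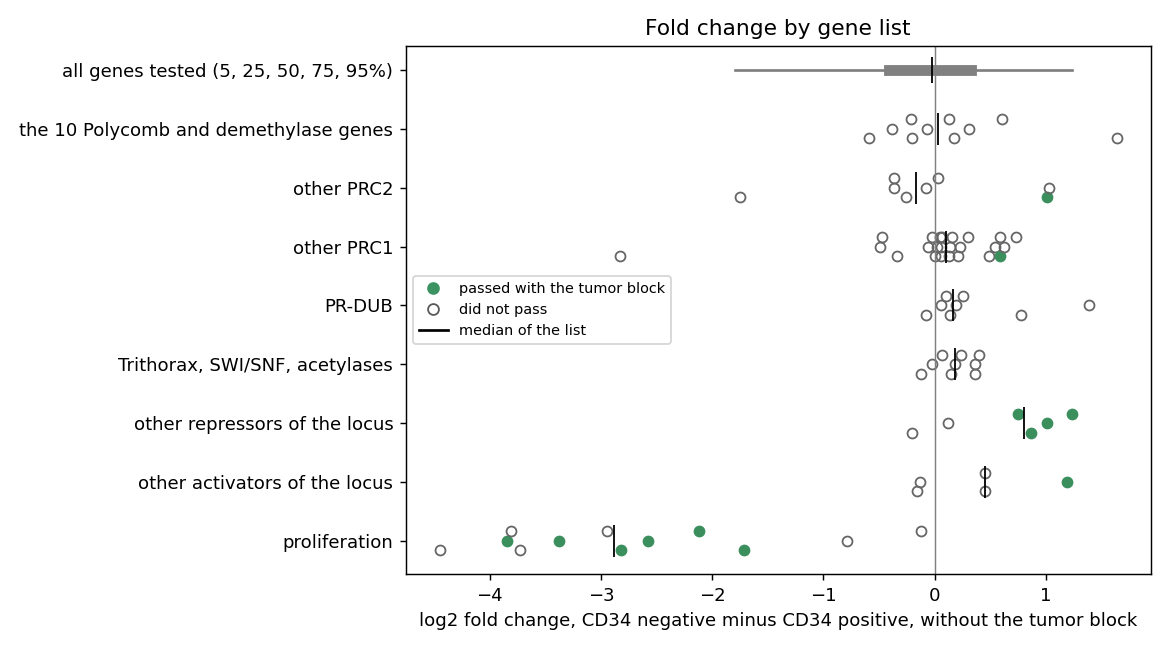
Log2 fold change without the tumor block, CD34- minus CD34+ CAFs (x axis), of each tested gene by list, with a black tick at the list median, green points for genes that passed with the block, and the 5th to 95th percentile of all genes at the top. The 10 regulators have a median of 0.03 and none is green, though Cbx7, at 1.63, lies beyond the 95th percentile of all genes. Of the other repressors of the locus, 4 of 6 are green on the right, and 6 of 12 proliferation genes are green on the left.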

How the data were processed

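Poly(A) RNA of sorted CAFs was sequenced on an Illumina platform. The authors aligned reads to GRCm38 and deposited raw counts per NCBI gene (Rsubread in the methods, featureCounts in the submitters' notes), with a gene length column. Strand use and the treatment of reads with several matches are not given in the sources used here, so overlapping genes and paralogs carry an uncertainty.

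Groups and tumor numbers came from the sample titles. As in the study's methods, genes were filtered with filterByExpr (minimum count 10), scaled by TMM and compared with voom and limma, with Benjamini-Hochberg adjustment over 14855 genes and a two-sided threshold of 0.05. CPM use the library total times its TMM factor, and RPKM are these CPM per kilobase of the deposited length. The log2 ratio of a tumor subtracts the voom log2 CPM of its positive library from that of its negative one. The tools were limma 3.58.1, edgeR 4.0.16 and DESeq2 1.42.0, run in R 4.3.3. Both fractions of a number came from 1 tumor, so the tumor was also fitted as a block. The study's methods name no term for the tumor. Its report has Cdkn2a upregulated in CD34- CAFs, and more genes higher in them than the fit without the block called here. The reason for this difference was not tested. Deviations from the group means correlated within tumors 1, 2 and 3 at 0.373, 0.350 and 0.219 across genes. With the block, the p-values rest on how the difference between the fractions varied over these 3 tumors. Without it, the 6 libraries are treated as independent and the pairing is ignored.

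The regulators and lists were chosen with earlier results of these data known. Named genes were the regulators, the locus genes, Cd34, Mki67, list genes that passed without or with the block (at most 10 per list), and the 2 of each list with the largest change at a mean log2 CPM of at least 1. Of these, 1 is not reported here on its own. Alternatives covered normalization, filter, annotation, test, sample weights, thinning, the block, and each library and tumor left out. The tests were tried on simulated data. The tumor as a random effect, and the other Polycomb count under further tests, were chosen after seeing the data.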

Additional observations from a re-analysis of the deposited data

How the results depend on the processing

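Of 26 alternatives for each of the 10 regulators, 253 values kept their direction and side of the threshold, 2 newly passed (Cbx7) and 5 turned in sign. Rnf2 turned to 0.00555 without negative library 2 and 0.00672 without positive library 1, Kdm6b to -0.0412 without negative library 1, -0.00866 without tumor 1 and -0.0117 there with the block. With a library or tumor left out, Rnf2 lay between -0.18 and 0.00672, Kdm6b between -0.0412 and 0.34, and Mtap between -0.0118 (without positive library 1) and 0.50, with -0.00574 without negative library 2. The number of regulators called was 1 in DESeq2 with the tumor block and 0 to 1 with a library or tumor left out.

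Over all genes, limma-voom without the block called 18 genes, 3 higher and 15 lower, 32 with library totals alone, 9 in edgeR, 674 in DESeq2 and 161 with sample quality weights. With the block it called 1273, edgeR 575, DESeq2 1730, and the random effect 703. Leaving out a library or tumor gave 0 to 86 calls without the block, and 1134, 851 and 2019 with the block and without tumors 1, 2 and 3. The fits without negative library 3, positive library 2, tumor 2 or tumor 3 and without the block called 0, with 2217, 1555, 1123 and 1641 genes at an unadjusted p under 0.05. Other Polycomb genes called numbered 2 in DESeq2, 2 with the block, 1 in edgeR and 4 in DESeq2 with the block, 2 with the random effect, and 0 to 2 with a library or tumor left out. The log2 difference of the Ezh2 to Ezh1 ratio lay between -0.92 and -0.39 with a library left out.

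With 3 tumors, the intervals of the regulators leave room for changes that the tests did not call, and Ring1 rests on 68 counts in positive library 1. The cause of the changes with the fit was not tested. RNA levels do not measure the histone mark.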
